A study of Mus musculus with 6 samples.

Results

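Endothelin and nitric oxide are a pair of opposing signals of the kidney vasculature and tubule. Endothelin-1 is made as a precursor and cut to its active form by endothelin-converting enzyme. It acts through an A-type receptor, which contracts smooth muscle and mesangial cells, and a B-type receptor, which clears the peptide, promotes nitric oxide release in endothelium and lowers sodium uptake in the collecting duct. Nitric oxide synthases make nitric oxide from arginine, and the gas activates soluble guanylyl cyclase in neighbouring cells, which makes cGMP and relaxes vessels. In the kidney the neuronal synthase is known as a mark of the macula densa.

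The genes described here were the 8 of these signals that were chosen by symbol, of 26903 genes listed over 6 libraries. They were the ligand *Edn1*, the receptors *Ednra* and *Ednrb*, the converting enzyme *Ece1*, the neuronal and endothelial synthases *Nos1* and *Nos3*, and the cyclase subunits *Gucy1a1* and *Gucy1b1*. Every one of the 8 had UMIs (unique molecular identifiers, which count captured transcripts once each) in each library. The libraries were single-cell RNA sequencing of renal cortex, each from 1 mouse aged 9 months, with 3 wild type (WT) and 3 *Prdm16* global knockout (KO) mice. The knockout was made by CRISPR-Cas9 removal of exon 2 and shifts the reading frame, and it is global, so no cell type was targeted on its own. All mice were labelled male. Filters left 28488 cells, and between 23107708 and 35366032 UMIs per library. Values of single mice are given below in the order of replicates 1 to 3.

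The level of *Prdm16*, the targeted gene, was 32.4, 26.7 and 27.1 CPM (UMIs of a gene in 1000000 UMIs) in the WT mice, while the KO mice had 21.0, 24.9 and 23.4 CPM, a log2 fold change of −0.29 (SE 0.12, adjusted p = 0.326 in edgeR). The counts do not show which exon a UMI came from. *Xist*, which marks female cells, reached 297 CPM for WT replicate 2, 306 CPM for KO replicate 1 and at most 0.216 CPM elsewhere. This goes against the labels, and results were also computed without this pair. Only 10 cell labels occurred in more than 1 library.

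Cells were grouped by marker genes into classes that resemble principal cells (PC), connecting tubule (CNT), intercalated cells (IC), distal convoluted tubule (DCT), thick ascending limb (LOH), macula densa, thin limb and parietal cells, proximal tubule (PCT), podocytes, endothelium, stromal and mesangial cells, macrophages, neutrophils, T and NK cells and B cells. Neutrophils, with no cell in WT replicate 1, were not tested between genotypes. The 8 genes were kept out of the clustering and of the marker lists. Endothelial and stromal cells were split further. The subclasses include endothelial subclusters that met no marker list and are called by their leading genes, such as *Rgs16* and *Fos*. The one led by *Gja5* and *Gm14226*, with 8 cells in WT replicate 1, was not tested either. Its mean levels were 184 CPM for *Edn1*, 314 CPM for *Ednrb* and 268 CPM for *Ece1*. This subcluster and the neutrophils are left out of the orders of levels below. All markers of a class were higher inside than outside it, except for 1 marker each of macula densa, thin limb and parietal cells, arterial endothelium and glomerular endothelium.

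*Edn1*, on chromosome 13 from 42301476 to 42307990 on the plus strand, and *Ednrb*, on chromosome 14 from 103814625 to 103844402 on the minus strand (GRCm38, GENCODE vM21), were the members called between WT and KO in the tests below. Their promoters are shown because both genes were lower in KO in the same tubule class. The sequences are the 250 bases before the annotated start in RefSeq (GRCm38.p6), at chr13:42301226-42301475 on the plus strand and chr14:103843702-103843951 on the minus strand, with capitals for the CACCC box, searched as CACCC on both strands (GGGTG is the same box on the other strand).
Edn1: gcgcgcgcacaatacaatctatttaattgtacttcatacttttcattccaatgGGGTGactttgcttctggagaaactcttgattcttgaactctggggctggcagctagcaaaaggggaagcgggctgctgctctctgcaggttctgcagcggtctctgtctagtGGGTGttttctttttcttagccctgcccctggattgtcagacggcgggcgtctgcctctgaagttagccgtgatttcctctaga
Ednrb: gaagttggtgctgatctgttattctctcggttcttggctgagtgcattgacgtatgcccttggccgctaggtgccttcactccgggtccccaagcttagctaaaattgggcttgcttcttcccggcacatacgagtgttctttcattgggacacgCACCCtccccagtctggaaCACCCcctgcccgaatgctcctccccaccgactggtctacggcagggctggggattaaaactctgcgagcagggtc
Each held 2 matches, beginning 197 and 84 bases before the start in *Edn1* and 95 and 76 bases before it in *Ednrb*. Of 32851 promoter windows of this length, 52.0% held a match. Neither held a TATA box on either strand (searched as TATAAA and held by 12.4% of windows). Both also lacked a GC box, whose letters GGGCGG were in 32.7% of windows. The same was true of the AP-1 site, searched as TGANTCA and present in 6.75%. Neither had a GATA core, which its 4 letters placed in 53.6% of windows, nor the hypoxia response core ACGTG, found in 16.6%. A match or its absence says only which letters lie in these windows. The RefSeq start used for *Ednrb* differs from its GENCODE start, and its window lies inside the GENCODE gene given above.

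The level of each gene in a class was computed in CPM of that class. Levels between classes are given as a description, since the classes are groups of the same cells. In bulk sums over all cells, fewer cells of a class and less RNA per cell cannot be told apart. Barcodes with fewer than 100 UMIs were taken as the level of free RNA, which gives UMIs to cells that do not express a gene. This level is not a floor for a class, since some classes held far less of a gene than free RNA did.

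*Edn1* was most abundant in endothelium. In the subcluster led by *Rgs16* and *Fos* it had 1119, 888 and 1174 CPM (WT) and 807, 1417 and 1148 CPM (KO). The 6 libraries of this subcluster lay above all 6 of the next class in the order, arterial endothelium, at 282, 595 and 509 CPM among WT and 767, 613 and 784 CPM among KO mice. The subcluster led by *Lgr5* and *Thbs2* followed at a mean of 523 ± 195 CPM (SD, n = 6), and its range overlapped that of arterial endothelium. The first class outside endothelium was CNT, 6.31 times lower than the *Lgr5* and *Thbs2* subcluster. CNT, at 83.0 ± 38.1 CPM, and PC, at 80.2 ± 46.6 CPM (SD, n = 6), were not separated. Endothelial cells held 34.1% of all UMIs of *Edn1* and PC 23.2%. Free RNA stood at 26.2 to 48.7 CPM for this gene, so the means of DCT (26.1 CPM), LOH (16.2 CPM) and podocytes (3.31 CPM) were under its range.

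The receptors had different sites. *Ednra* (chromosome 8, 77663031 to 77724464, minus strand) was found in stromal and mesangial cells, which held 176 of its UMIs, or 87.1%. Mesangial, pericyte and smooth muscle cells carried 142, 214 and 97.2 CPM for WT mice and 141, 77.0 and 152 CPM for KO mice, and the 2 groups overlapped. The stromal cells led by *Ptn* and *Igfbp4* were 4.25 times lower, at 32.3 ± 8.50 CPM (SD, n = 6), with no overlap. *Ednra* had 3 UMIs in all endothelial cells.

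*Ednrb* was most abundant in peritubular capillary endothelium, with 988, 959 and 708 CPM (WT) and 1999, 883 and 1669 CPM (KO). Glomerular endothelium came next, at 855, 367 and 529 CPM among WT and 621, 334 and 432 CPM among KO mice. The ranges of these classes overlapped, as did those of glomerular endothelium and of mesangial, pericyte and smooth muscle cells (213 ± 97.5 CPM, SD, n = 6). Endothelium held 74.5% of its UMIs and PC 14.5%. Free RNA reached 26.2 CPM in KO replicate 1 and was at most 10.9 CPM in the other libraries. Several classes lay far below it, among them podocytes, at a mean of 0.635 CPM, and macula densa, at 0.325 CPM. A level near free RNA is therefore not by itself the level of a class without the gene. LOH cells, at a mean of 0.139 CPM, had a UMI of *Ednrb* in 0.123% ± 0.212 of WT and 0.125% ± 0.108 of KO cells (SD, n = 3), with median depths of 7452 and 8427 UMIs. In PC such cells were 19.7% ± 2.90 for WT and 6.82% ± 0.502 for KO mice, at 5041 and 6758 UMIs, and in CNT 19.0% ± 3.57 and 10.9% ± 0.573, at 6299 and 7955 UMIs.

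*Ece1*, the converting enzyme (chromosome 4, 137862237 to 137965229, plus strand), was high in all endothelial subclasses. Their means ran from 187 CPM in the *Rgs16* and *Fos* subcluster to 325 CPM in peritubular capillaries, and the ranges of every neighbouring pair in the order of endothelial subclasses overlapped. Endothelium held 51.8% of its UMIs and podocytes 14.7%.

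**Figure D1:**
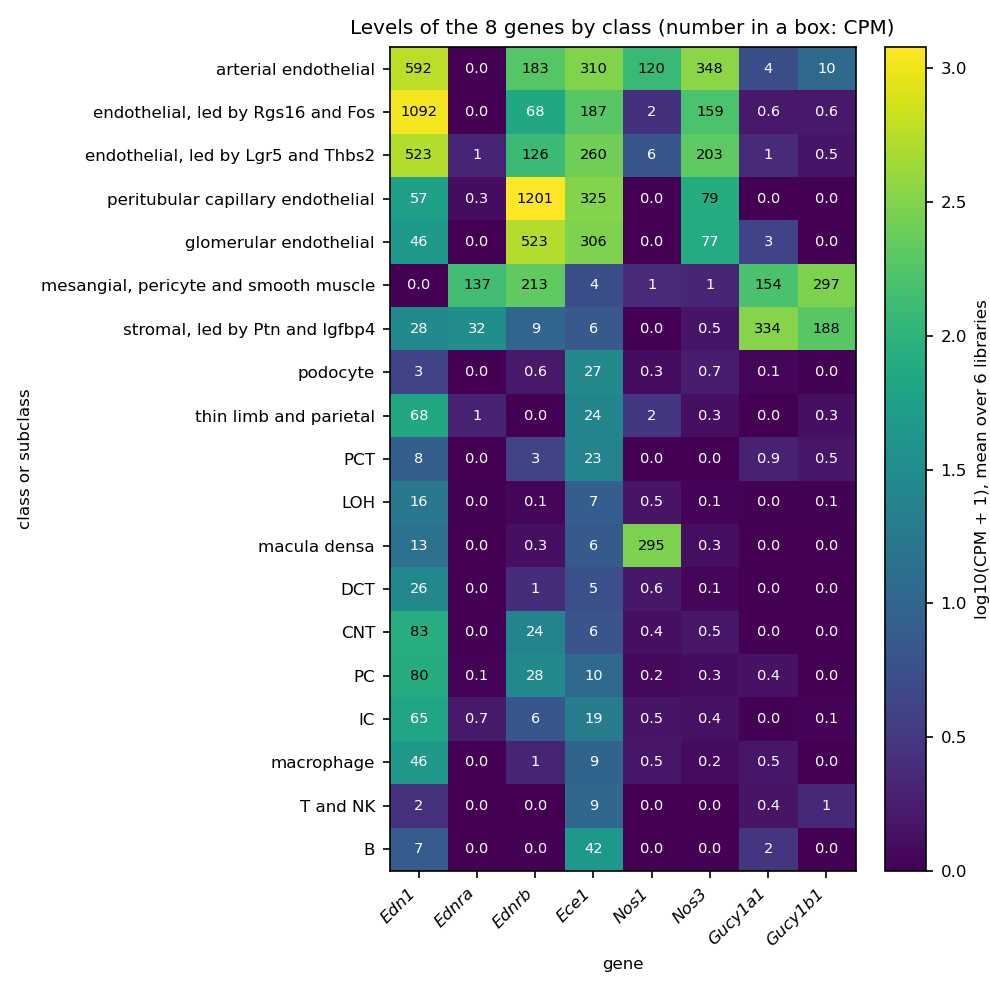
Mean level of the 8 genes (columns) over 6 libraries by class or subclass (rows), coloured by log10(CPM + 1), with the CPM in each box. Neutrophils and the endothelial subcluster led by *Gja5* and *Gm14226* are not shown. *Edn1*, *Ednrb*, *Ece1* and *Nos3* peak in endothelial rows, *Nos1* in macula densa (295 CPM), and *Ednra*, *Gucy1a1* and *Gucy1b1* in the stromal rows.

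The synthases had separate sites. *Nos1* (chromosome 5, 117781032 to 117958840, plus strand) was found in macula densa cells, the sensor of tubular salt beside the glomerulus, at 357, 297 and 282 CPM for WT mice and 265, 283 and 288 CPM for KO mice. The mean over libraries was 355 CPM at Leiden resolution 2.0 and 656 CPM at a mitochondrial share of at most 30%, which left 12 to 25 cells per library. Macula densa cells held 91.9% of its UMIs, and 46.7% ± 5.01 of them had a UMI (SD, n = 6). Arterial endothelium was second, at 185, 131 and 113 CPM (WT) and 65.4, 178 and 49.0 CPM (KO), and lay below every macula densa library. The next class was 21.5 times lower. *Nos3* (chromosome 5, 24364810 to 24384474, plus strand), the endothelial synthase, had 95.8% of its UMIs in endothelium. Arterial endothelium led at 317, 425 and 217 CPM among WT and 315, 312 and 502 CPM among KO mice, and overlapped the *Lgr5* and *Thbs2* subcluster (203 ± 40.1 CPM, SD, n = 6). Peritubular capillaries, at 79.2 ± 20.8 CPM, lay below the 3 leading subclasses, and glomerular endothelium, at 76.5 ± 29.6 CPM, reached 117 CPM in 1 library and so overlapped the third of them. A UMI of *Nos3* was found in 52.3% ± 12.9 of arterial, 8.90% ± 3.13 of peritubular and 10.3% ± 4.83 of glomerular endothelial cells.

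The cyclase subunits were stromal. *Gucy1a1* and *Gucy1b1*, which form the nitric oxide receptor as a pair, lie next to each other on chromosome 3, at 82092427 to 82145789 and 82032006 to 82074689 on the minus strand, 17.7 kb apart. Stromal and mesangial cells held 95.5% of the UMIs of *Gucy1a1* and 96.0% of those of *Gucy1b1*. *Gucy1a1* was 2.16 times higher in the stromal cells led by *Ptn* and *Igfbp4* than in mesangial, pericyte and smooth muscle cells, with no overlap between libraries. *Gucy1b1* had the opposite order, 297 ± 159 CPM in mesangial, pericyte and smooth muscle cells and 188 ± 40.3 CPM in the other stromal cells (SD, n = 6), with overlap.

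Across 19 named classes, the genes most like each member in log2(CPM + 1) were, by Pearson's r over class means, *Tspo* for *Edn1* (0.92), *Corin* for *Ednra* (0.995), *Acer2* for *Ednrb* (0.93), *Trim37* for *Ece1* (0.95), *Scara3* for *Nos1* (0.85), *Ido1* for *Nos3* (0.99), *Gdf10* for *Gucy1a1* (0.99) and *Rgs5* for *Gucy1b1* (0.99). For the members from *Ednra* on, they were followed by *Susd5* and *Kcnmb1*, *Ldb2* and *Hyal1*, *Hyal2* and *Kank3*, *Chp2* and *Tmem158*, *Hspa12b* and *Ccm2l*, *Ddr2* and *Mrvi1*, and *Ddr2* and *Pi15*. Of the members themselves, *Gucy1a1* and *Gucy1b1* were most alike (0.98). The classes share libraries and some are parts of others, so these values are a description.

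To ask whether the loss of *Prdm16* moved these genes, WT and KO were compared in each class on UMIs summed per mouse, with the quasi-likelihood test of edgeR. A gene was called at an adjusted p (Benjamini and Hochberg over all genes of the class) under 0.05. Of 53 pairs of a member and a class that passed the filter on low counts, 5 were called, 4 lower and 1 higher in KO, and 19 had an unadjusted p under 0.05. Over all genes 1.23% of 123525 pairs were called. An unadjusted p under 0.05 was common over all genes too. It was found for 1519 of 10970 genes in PC, 1162 of 10677 in IC and 783 of 8742 in endothelium. In the sum over all cells edgeR called 0 of the 8 members, where 1.07% of all genes were called. DESeq2 called 1 member there, and 814 of 15170 genes. An unadjusted p under 0.05 in edgeR was found for 3 members and for 2324 of 15178 genes. The median log2 fold change of the members there was −0.01, beside 0.00 over all genes.

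*Ednrb* fell in PC. The WT mice had 53.0, 44.1 and 36.0 CPM and the KO mice 10.4, 12.2 and 11.2 CPM. No KO mouse reached the lowest WT mouse. The KO levels were below free RNA of the same library in KO replicate 1 (26.2 CPM) and a little above it in the others (9.37 and 10.9 CPM), and the WT levels lay above theirs (at most 10.8 CPM). The log2 fold change was −1.95 (SE 0.17, adjusted p = 8.85e-05 in edgeR, n = 3 per group), in a class where 2.97% of genes were called. Both PC clusters had lower means in KO, at 38.9 ± 10.7 against 5.78 ± 1.57 CPM in the one led by *Mcoln3* and *Adh1* and 50.6 ± 6.13 against 16.4 ± 2.76 CPM in the one led by *Kcne1* and *Hsd11b2* (SD, n = 3). It was called in every one of 14 alternatives, with log2 fold changes from −2.21 to −1.83. After thinning each cell to 1000 UMIs, which left out 448 WT and 230 KO cells, the share of PC with a UMI was 4.20% in WT and 1.31% in KO. The summed level of 9 endothelial markers in PC was 5.37 to 7.36 CPM among WT and 3.93 to 15.2 CPM among KO mice, with 7 of them higher and 2 lower. The 7 PC markers summed to 15108 to 16737 CPM among WT and 11159 to 17594 CPM among KO mice. The 8 IC markers, all lower in KO, summed to 949 to 1248 CPM among WT and 705 to 935 CPM among KO mice. The 5 CNT markers, of which 2 were lower and 3 higher, summed to 12745 to 16209 CPM and 10606 to 11198 CPM, and the part of both in the result was not tested.

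*Ednrb* fell in CNT as well, where WT mice had 30.8, 34.3 and 36.5 CPM and KO mice 17.5, 12.6 and 10.9 CPM. The groups did not overlap. The log2 fold change was −1.20 (SE 0.23, adjusted p = 0.00937 in edgeR), and 1.48% of genes were called in CNT. Without KO replicate 3 the adjusted p was 0.0510. As in PC, KO replicate 1 lay below its free RNA, and KO replicate 3 was level with it. After thinning, which left few cells with a UMI, 1.82% ± 0.709 of WT and 2.32% ± 1.77 of KO cells had one (SD, n = 3), and no order is read from it. The 5 CNT markers, 3 higher and 2 lower, summed to 81937 to 87175 CPM among WT and 65043 to 76902 CPM among KO mice, and their part in the result was not tested.

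In IC, *Ednrb* was low, with 9.04, 11.8 and 8.24 CPM for WT mice and 2.43, 0.764 and 1.66 CPM for KO mice, again without overlap. Free RNA of *Ednrb* was at 10.8, 8.0 and 10.5 CPM in the WT libraries, close to these levels, and at 26.2, 9.37 and 10.9 CPM in the KO libraries, above them. The log2 fold change was −2.45 (SE 0.33, adjusted p = 0.00825 in edgeR), with 0.59% of genes called. These UMIs came mostly from 1 of the 3 IC clusters, led by *Spink8* and *Atp6v1g3*, with 17.3 ± 2.66 CPM for WT and 4.40 ± 1.01 CPM for KO mice. In the other IC clusters its group means were at most 0.728 CPM. The *Spink8* cluster also carried PC markers, with 6075 CPM for WT and 5661 CPM for KO mice against 239 to 440.3 CPM in the other clusters. Its IC markers summed to 5542 CPM for WT and 5915 CPM for KO mice, against 8667 to 10976 CPM in the other clusters. This cluster thus resembled both PC and IC. It made up 53.8% to 62.8% of IC cells in the WT libraries and 13.8% to 52.9% in the KO libraries. Over all IC cells the 7 PC markers summed to 2968 to 3805 CPM among WT and 1504 to 2450 CPM among KO mice, and the part of this in the fall of *Ednrb* was not tested. With the 4 libraries without *Xist* the adjusted p was 0.0767.

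*Edn1* fell in CNT, where WT mice had 93.0, 141 and 110.3 CPM and KO mice 49.4, 54.0 and 50.1 CPM, with no overlap. The log2 fold change was −1.14 (SE 0.18, adjusted p = 0.00190 in edgeR). Both members that passed the filter in CNT were therefore called there, with a median log2 fold change of −1.17 beside 0.00 over all genes. The free RNA level of *Edn1* in the KO libraries was 31.8 to 41.5 CPM, below the levels in CNT. Cells retained at a mitochondrial share of at most 30%, as few as 12 CNT cells in KO replicate 2, gave −0.95 on the log2 scale (adjusted p = 0.644 in edgeR).

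The same order was seen in PC and in thin limb and parietal cells without passing the threshold. In PC *Edn1* was at 70.5, 168 and 93.2 CPM for WT mice and 44.8, 44.4 and 60.5 CPM for KO mice (log2 fold change −1.11, SE 0.27, adjusted p = 0.0537). Without WT replicate 2, the highest library, the log2 fold change was −0.70 (adjusted p = 0.150), and without WT replicate 1 it was −1.36 (0.00760). Thin limb and parietal cells had 88.1, 110.5 and 81.4 CPM (WT) and 31.6, 44.1 and 53.6 CPM (KO), a log2 fold change of −1.03 (SE 0.32, adjusted p = 0.455). In peritubular capillaries and arterial endothelium the order was the reverse, also without passing. Peritubular capillaries had 25.5, 45.7 and 29.1 CPM (WT) and 54.3, 136 and 52.2 CPM (KO), without overlap, and a log2 fold change of 1.28 (SE 0.45, adjusted p = 0.372). In arterial endothelium, also without overlap, it was 0.62 (SE 0.26, adjusted p = 0.424). The groups overlapped in the subclusters led by *Rgs16* and *Fos* (0.13, SE 0.20, adjusted p = 0.921) and by *Lgr5* and *Thbs2* (0.42, SE 0.28, adjusted p = 0.789). In IC the means were 67.2 ± 25.7 and 63.1 ± 9.90 CPM (SD, n = 3) and in endothelium 424 ± 53.7 and 419.6 ± 109 CPM.

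**Figure D2:**
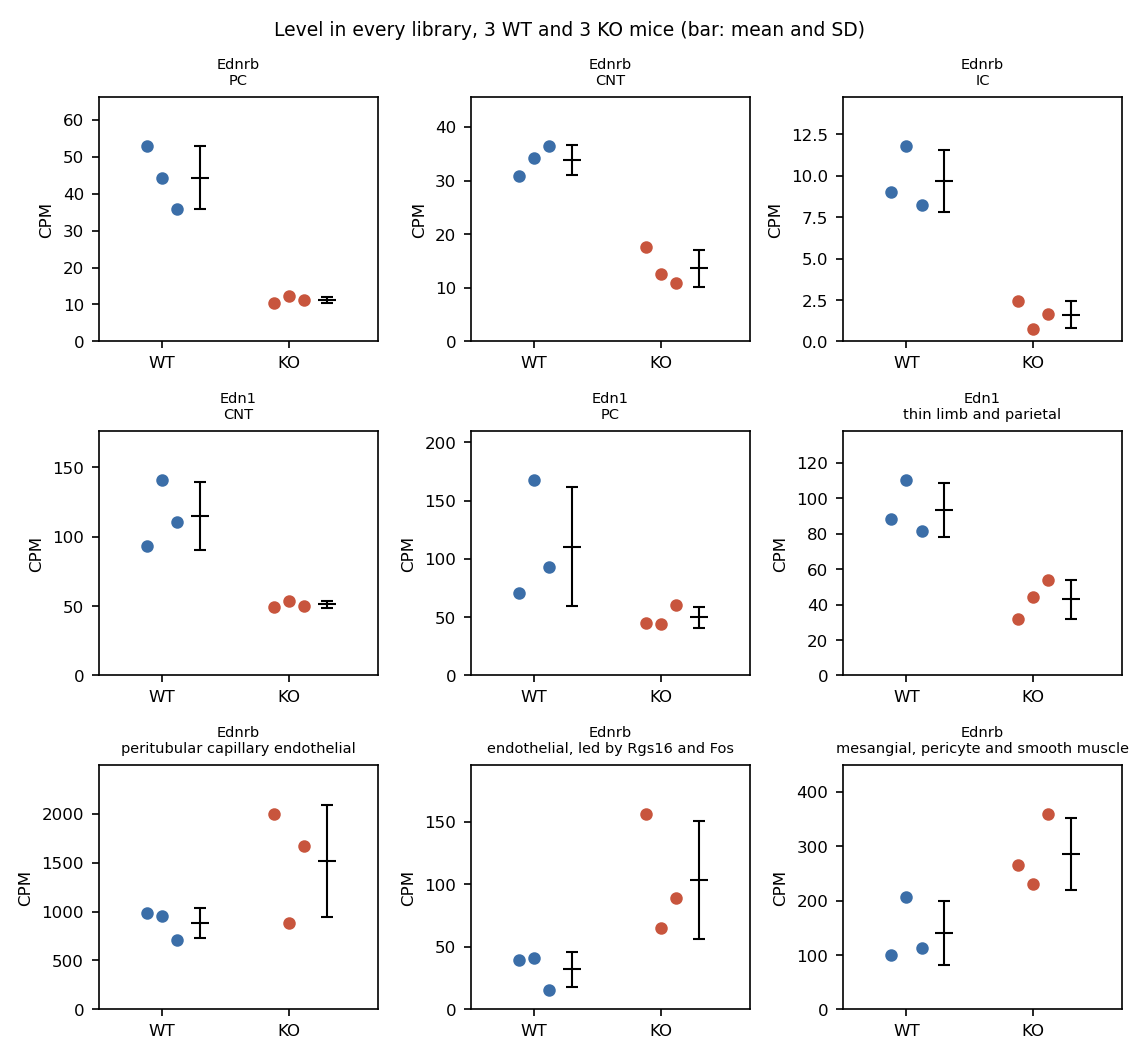
Level in CPM (vertical axes, starting at 0) of *Ednrb* and *Edn1* in the class named over each panel, with 1 point per mouse, WT blue and KO red, and the mean and SD beside them. In PC, CNT and IC every KO point of *Ednrb* lies below every WT point, and in the *Rgs16* and *Fos* subcluster and the mesangial, pericyte and smooth muscle cells every KO point lies above.

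Outside the tubule *Ednrb* rose in 1 class. In the endothelial subcluster led by *Rgs16* and *Fos* it was at 39.4, 40.9 and 15.8 CPM among WT and 156, 65.3 and 88.9 CPM among KO mice, and the groups did not overlap. The log2 fold change was 1.86 (SE 0.38, adjusted p = 0.0257 in edgeR), with 0.587% of genes called. This call was lost without WT replicate 3 (adjusted p = 0.120), KO replicate 1 (0.337) or KO replicate 3 (0.0763), and with the libraries without *Xist* alone (0.401), DESeq2 (0.0674) or Leiden resolution 2.0 (0.0871), and kept in 8 of 14 alternatives. The 5 peritubular capillary markers in this subcluster summed to 340.2 to 896 CPM among WT and 682 to 1406 CPM among KO mice, and their part in the result was not tested.

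In peritubular capillary endothelium the log2 fold change of *Ednrb* was 0.76 (SE 0.25, adjusted p = 0.305), with KO replicate 2 among the WT values. In glomerular endothelium it was −0.26 (SE 0.28, adjusted p = 0.919). The endothelial class as a whole had 408, 275 and 301 CPM for WT mice and 745, 381 and 669 CPM for KO mice, with overlap (0.89, SE 0.23, adjusted p = 0.168). This passed the threshold, among other alternatives, with DESeq2 (0.0428) and without KO replicate 2 (0.0315), and stayed uncalled in 11 of 14. Peritubular cells numbered 176, 109 and 175 in the WT libraries and 429, 375 and 331 in the KO libraries, and the part of this makeup in the level of the class was not tested. Stromal and mesangial cells had 29.3, 58.4 and 37.3 CPM (WT) and 148, 92.9 and 102.9 CPM (KO), without overlap (1.49, SE 0.30, adjusted p = 0.0873). They passed it, among other alternatives, with DESeq2 (0.0466) and without WT replicate 2 (0.0218), and stayed uncalled in 9 of 14. Within them the mesangial, pericyte and smooth muscle cells had 99.5, 207 and 113 CPM among WT and 266, 231 and 360 CPM among KO mice (0.96, SE 0.28, adjusted p = 0.547), on 20 to 102 cells per library. The 9 endothelial markers in that subclass summed to 8.10 to 56.8 CPM among WT and 17.1 to 152 CPM among KO mice, with *Kdr* and *Tek* at 0, and their part in the result was not tested.

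The genotype effect on *Ednrb* differed between classes. The classes outside endothelium in which a member was called, PC, CNT and IC, were each set against endothelium. Endothelium was set against stromal and mesangial cells. This choice came from the calls in these same data. The difference of the genotype effects, with the mouse as a block, was tested for 23 pairs of a member and a comparison, and 4 were called. The rise in endothelium itself was not called (0.89, adjusted p = 0.168 in edgeR). The log2 fold change of *Ednrb* minus that in endothelium was −2.88 in PC (adjusted p = 8.60e-06 in edgeR), −3.43 in IC (1.56e-05) and −2.19 in CNT (9.54e-06). The effect on *Edn1* differed by −1.07 in CNT (adjusted p = 0.0104), and without WT replicate 2 by −0.80 (0.136). Over all genes 1.14% differed in PC, 0.415% in IC and 0.961% in CNT. Between endothelium and stromal and mesangial cells the effect on *Ednrb* differed by −0.56 (adjusted p = 0.800), where 0.0869% of genes were called and 0 members.

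**Figure D3:**
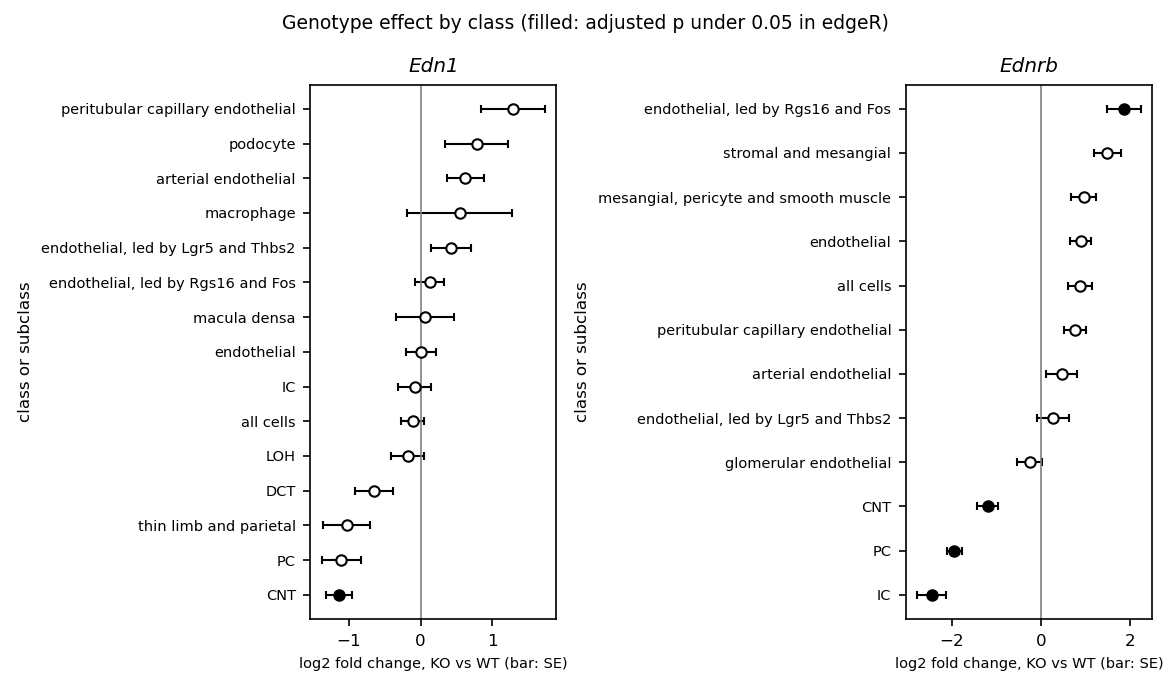
Log2 fold change of KO against WT (horizontal axis, bar SE) of *Edn1* and *Ednrb* in each class in which they passed the filter, filled where the adjusted p was under 0.05. *Ednrb* runs from −2.45 in IC to 1.86 in the *Rgs16* and *Fos* subcluster, and *Edn1* is called in CNT.

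The converting enzyme *Ece1* did not pass the threshold in any class. In podocytes, the filtration cells of the glomerulus, it was at 13.7, 11.8 and 20.9 CPM for WT mice and 63.1, 23.6 and 28.2 CPM for KO mice, without overlap (log2 fold change 1.34, SE 0.34, adjusted p = 0.0781). KO replicate 1 was far above the others, and without it the log2 fold change was 0.76 (adjusted p = 0.223), while without KO replicate 2 the difference was called (1.60, 0.0348). Free RNA of *Ece1* was also highest in that library, at 16.0 CPM, as was the sum of the 9 endothelial markers in podocytes, at 15.1 CPM against 1.53 to 7.11 CPM elsewhere, and their part in the result was not tested. In LOH it was at 10.4, 10.3 and 6.53 CPM (WT) and 5.54, 5.67 and 5.01 CPM (KO), a log2 fold change of −0.74 (SE 0.22, adjusted p = 0.0871). In endothelium it differed by −0.21 (SE 0.16, adjusted p = 0.793).

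The synthases were not called in any class. *Nos1* in macula densa differed by −0.13 (SE 0.13, adjusted p = 0.812). In all endothelial cells it was at 22.7, 15.5 and 12.3 CPM among WT and 4.57, 9.88 and 3.67 CPM among KO mice, without overlap (−1.44, SE 0.39, adjusted p = 0.188), on 90 UMIs. Within arterial endothelium, which held 81 of these, the groups overlapped (−0.63, SE 0.42, adjusted p = 0.798). *Nos3* in endothelium was at 181, 151 and 113 CPM for WT mice and 133, 128 and 117 CPM for KO mice (−0.21, SE 0.16, adjusted p = 0.793). In the sum over all cells *Nos3* had 6.26, 5.63 and 4.61 CPM (WT) and 10.95, 9.35 and 5.47 CPM (KO), with overlap (0.65, SE 0.21, adjusted p = 0.213), in which the endothelial cells numbered 604 to 688 per WT library and 681 to 1492 per KO library. At a mitochondrial share of at most 30% this sum was called (0.77, adjusted p = 0.0128), where 626 of 14107 genes were called.

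Of the cyclase subunits, *Gucy1a1* had 440.0, 399 and 354 CPM among WT and 255, 282 and 273 CPM among KO mice in the stromal cells led by *Ptn* and *Igfbp4*, without overlap (−0.50, SE 0.20, adjusted p = 0.452). In mesangial, pericyte and smooth muscle cells the groups overlapped, at 220.2, 147 and 97.2 CPM for WT mice and 164, 128 and 171 CPM for KO mice (−0.01, SE 0.31, adjusted p = 0.999). In the same 2 subclasses *Gucy1b1* had log2 fold changes of 0.12 (SE 0.24, adjusted p = 0.950) and −0.17 (SE 0.37, adjusted p = 0.968) that missed the threshold. The sum of *Gucy1a1* over all cells was 5.78, 7.01 and 3.32 CPM (WT) and 3.34, 3.16 and 2.29 CPM (KO), and overlapped (−0.85, SE 0.26, adjusted p = 0.189). *Ednra* in mesangial, pericyte and smooth muscle cells had −0.31 (SE 0.33, adjusted p = 0.952).

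**Figure D4:**
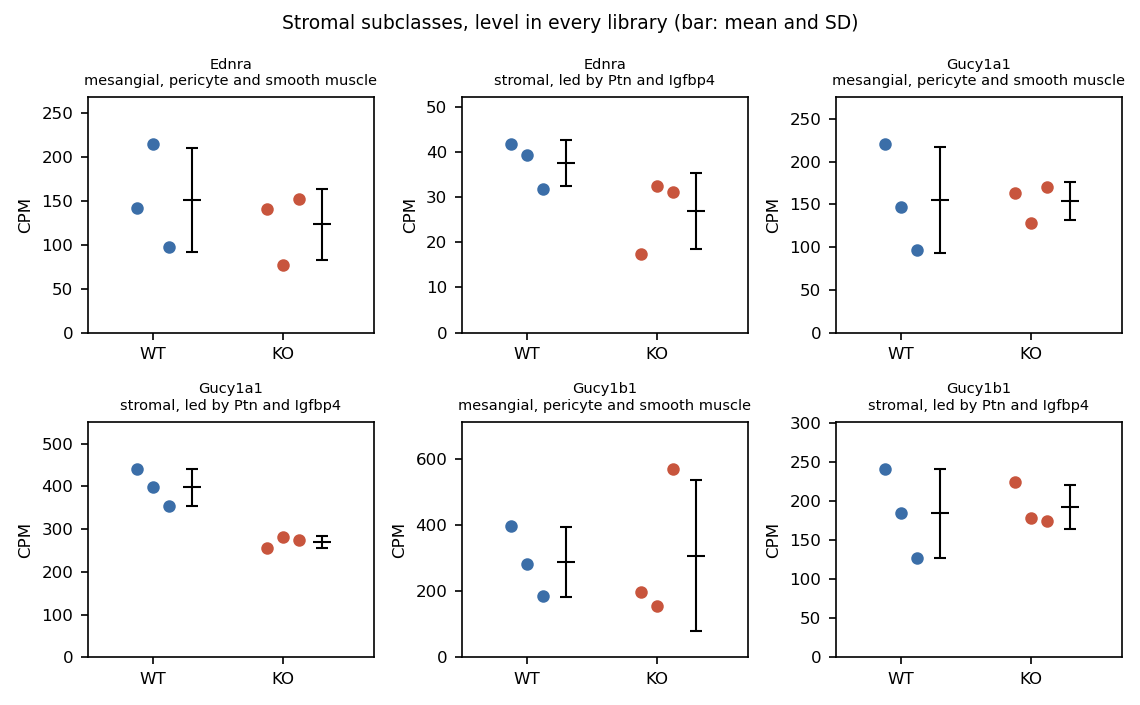
Level in CPM (vertical axes, starting at 0) of *Ednra*, *Gucy1a1* and *Gucy1b1* in both stromal subclasses, 1 point per mouse, WT blue and KO red, with mean and SD. *Gucy1a1* in the cells led by *Ptn* and *Igfbp4* is the one panel whose groups do not overlap, 354 to 440.0 CPM against 255 to 282 CPM.

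Other genes of the pathway were taken from a list of 45, of which 44 had a row. Over the class tests 413 pairs of a gene and a class were tested, 8 rose and 2 fell, where 1.23% of pairs were called over all genes. Of 8 genes that supply or compete for arginine, 7 were tested and 1 was called, *Arg2*, the mitochondrial arginase, which splits the substrate of the synthases. *Arg2* rose in PC, from 20.4, 16.0 and 29.6 CPM (WT) to 76.5, 82.8 and 53.9 CPM (KO) (log2 fold change 1.71, SE 0.23, adjusted p = 0.00192 in edgeR). It also rose in LOH, where 4.47% of genes were called, from 37.3 ± 8.72 to 85.1 ± 32.5 CPM (SD, n = 3; 1.17, adjusted p = 0.00813), and in macula densa, where 1.35% were called, from 53.0 ± 15.4 to 131 ± 45.5 CPM (1.35, adjusted p = 0.00360). In each of these the groups did not overlap. The macula densa call was lost without WT replicate 3 (adjusted p = 0.0518) or KO replicate 3 (0.0567) and at a mitochondrial share of at most 30% (0.647), which also lost the LOH call (0.137), and the PC call with the libraries without *Xist* alone (0.0633).

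Of 13 genes for nitric oxide synthesis, all 13 were tested and 2 were called, both of them in PC. *Klf2*, a transcription factor known to raise *Nos3* in endothelium, rose from 16.1, 12.5 and 12.3 CPM to 39.8, 45.9 and 54.4 CPM (1.81, SE 0.18, adjusted p = 0.000207 in edgeR). *Klf4* rose from 175 ± 24.1 to 296 ± 34.2 CPM (SD, n = 3; 0.79, adjusted p = 0.0164), a call lost without WT replicate 1, KO replicate 2 or KO replicate 3, at adjusted p-values of 0.0584, 0.0670 and 0.0534. *Nos3* itself was at 0.271 CPM in PC. Of 13 genes for the cyclase, cGMP effectors and phosphodiesterases, 12 were tested and 2 fell. *Pde1c*, which breaks down cGMP and cAMP, fell in PC from 45.6, 35.8 and 34.7 CPM to 16.1, 16.1 and 17.6 CPM (−1.18, SE 0.15, adjusted p = 0.00160). *Cyb5r3*, which reduces the haem of the cyclase, fell in podocytes, where 1.82% of genes were called, from 339, 336 and 293 CPM to 208, 242 and 236 CPM (−0.51, SE 0.11, adjusted p = 0.0426), a call lost without any 1 of the 6 libraries (adjusted p from 0.0596 to 0.159).

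Of 4 genes for endothelin ligands, processing and clearance, 2 were tested and *Mme*, the peptidase neprilysin that degrades endothelin, rose in IC from 461, 357 and 418 CPM to 846, 1073 and 688 CPM (1.08, SE 0.16, adjusted p = 0.0109). It was kept in 10 of 14 alternatives, and lost without WT replicate 3 (adjusted p = 0.0701), with the replicate block (0.0542), with the libraries without *Xist* alone (0.106) and at a mitochondrial share of at most 30% (0.299). *Mme* is a leading gene of the IC cluster led by *Slc4a1* and *Aqp6*, which held 18.2% to 21.7% of IC cells in the WT libraries and 34.0%, 38.0% and 17.7% in the KO libraries, and the part of this in the rise was not tested. Of 7 receptor G proteins and their brakes, all 7 were tested and 2 rose. *Rgs2*, a brake on the G proteins of the endothelin receptors, rose in DCT, where 1.01% of genes were called, from 63.4, 139 and 71.3 CPM to 187, 236 and 148 CPM (1.05, SE 0.23, adjusted p = 0.0452), and this call was lost without any 1 library other than WT replicate 2 (adjusted p from 0.0639 to 0.238). *Rgs4* rose in the stromal cells led by *Ptn* and *Igfbp4*, where 0.462% of genes were called, from 20.8, 22.4 and 11.9 CPM to 164, 70.5 and 68.3 CPM (2.47, SE 0.41, adjusted p = 0.00898), and was not called without KO replicate 1 (0.272). In the sum over all cells *Arg2* rose (1.82, adjusted p = 0.0136) and *Pde1c* (−1.21, adjusted p = 0.0247) and *Cav1* (−0.52, adjusted p = 0.0448), whose protein holds the *Nos3* enzyme inactive, fell. Without any 1 library other than KO replicate 3, *Pde1c* (adjusted p from 0.0634 to 0.109) and *Cav1* (0.0934 to 0.166) were not called. *Arg2* was not called there without WT replicate 2 (0.0673) or with the libraries without *Xist* alone (0.109). The median log2 fold change of the list was 0.00 beside 0.01 over all genes in PC and 0.03 beside 0.00 in the sum over all cells, and over the classes it ran from −0.14 in B cells to 0.28 in thin limb and parietal cells.

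**Figure D5:**
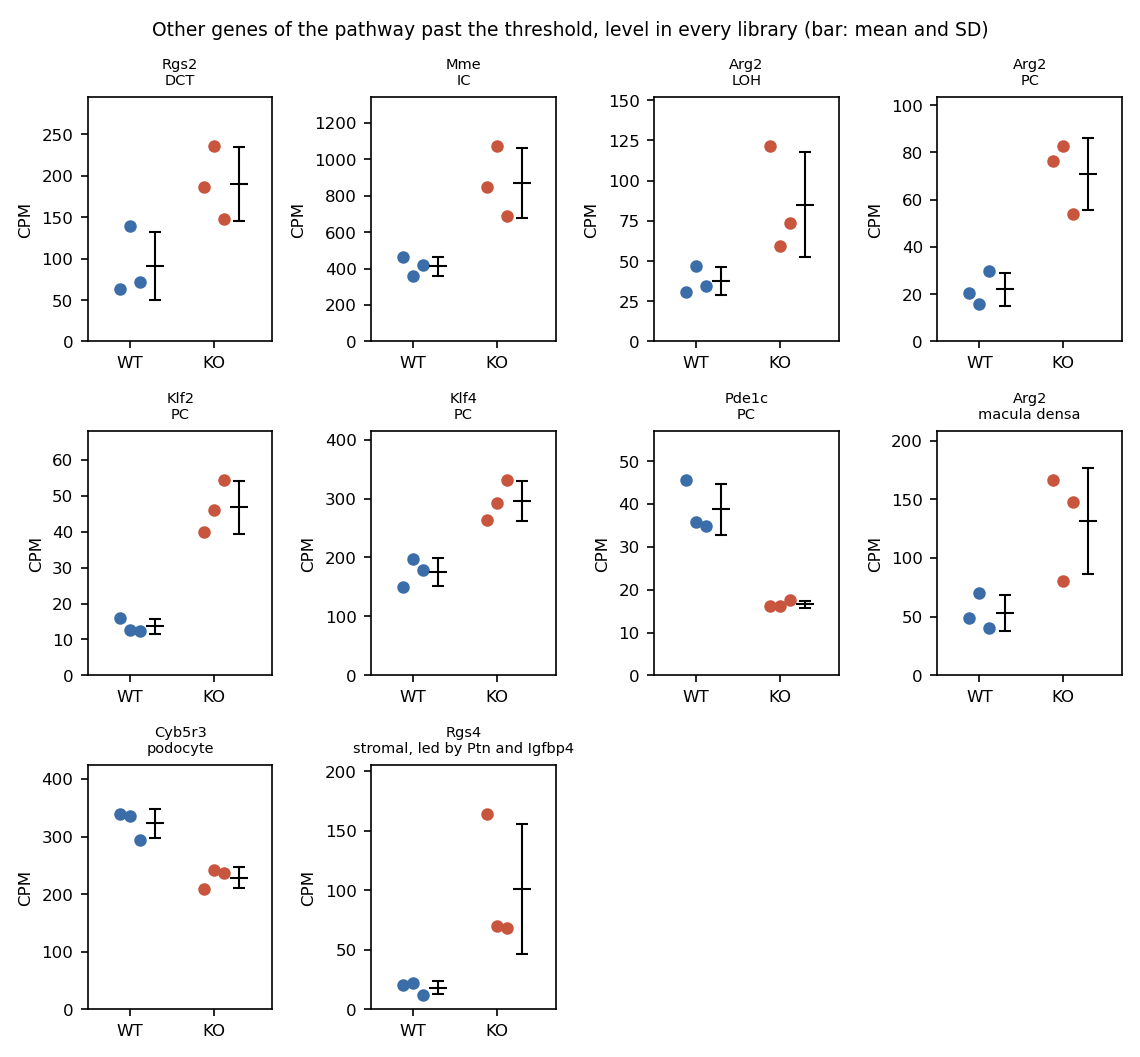
Level in CPM (vertical axes, starting at 0) of the 10 pairs of another pathway gene and a class that passed the threshold, 1 point per mouse, WT blue and KO red, with mean and SD. *Klf2* and *Arg2* lie higher and *Pde1c* lower in every KO mouse in PC, where *Ednrb* fell, as it also did in CNT and IC.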

How the data were processed

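Renal cortex of 3 WT and 3 *Prdm16* KO mice had been captured on BD Rhapsody and processed by the authors with the BD Rhapsody WTA pipeline against mm10. The submitters' processing notes name Scanpy 1.8. The deposited values are raw UMI counts per gene and barcode, not normalised, and include barcodes without a cell. The 8 members, the gene lists and the tests were chosen with earlier results of these data known.

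Barcodes with 500 to 60000 UMIs, 200 to 8000 genes and at most 50% mitochondrial UMIs were kept, and the 6% with the highest Scrublet scores were removed from every library, since the automatic threshold marked under 0.5% in each. Cells were scaled to 10000, log-transformed, reduced (2000 variable genes without the members, 30 components, 15 neighbours) and clustered with Leiden at resolution 1.0 in scanpy 1.11.5. The 26 clusters (23 before a mixed one was split) were named from 161 markers, and a name means resemblance. The rules to split a mixed cluster and to name by at least 3 markers detected in 10% of its cells were set after the clusters were seen.

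For the 21 classes and subclasses that held 10 or more cells of each mouse, UMIs were summed per mouse and tested with edgeR 4.0.16 in R 4.3.3 (TMM, filterByExpr with a minimum count of 10, two-sided quasi-likelihood test, SE from its F statistic). Levels in CPM used all UMIs of the class. Named genes were all members, list genes called in a class, at most 4 a class, and the 3 genes most like each member among those with at least 100 UMIs. The genes that came after the first for *Edn1* are not reported here. Alternatives were RLE factors, no filter, DESeq2 1.42.0, blocks for replicate number and for *Xist*, other libraries, a 30% mitochondrial limit, Leiden resolution 2.0 and thinning. The script was tested on simulated counts. Positions were matched by symbol to GENCODE vM21. Of the members 7 had a RefSeq promoter, and *Nos3* had none in the table used. Mice shared no stated litter, day or batch, so replicate numbers were not treated as pairs, and p-values measure the spread between these mice.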

Additional observations from a re-analysis of the deposited data

Results flagged for a closer look

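The genotype effect on *Ednrb* in PC, IC and CNT, and on *Edn1* in CNT, differed from that in endothelium in a test of the difference itself. These classes were tested because a member was called in them. The differences of log2 fold changes were −2.88, −3.43, −2.19 and −1.07 (adjusted p = 8.60e-06, 1.56e-05, 9.54e-06 and 0.0104 in edgeR). The IC value rests on the cluster that also carried PC markers.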

How the results depend on the processing

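The 39 single results were members with an unadjusted p under 0.05, other pathway genes called and differences called, all chosen from these same data. They were recomputed under up to 14 alternatives each, 512 values in all. Of these 0 changed sign, 432 stayed on the same side of the threshold, 55 were lost and 25 passed newly. The 432 include uncalled results that stayed uncalled. The alternatives used the same mice or a part of them, so a kept sign was likely from the outset. Of the levels and shares with no test, 16 values moved by more than the spread between mice. The 5 calls over the class tests were 14 with no filter on low counts (6 higher, 8 lower), where all genes went from 1523 to 5481 calls, 3 in the libraries without *Xist* and 3 at a mitochondrial share of at most 30%, where *Ednrb* in CNT and IC did not pass the filter and fewer cells were left. All genes had 662 and 574 calls in these. *Edn1* in CNT was also lost there, and the cause was not tested. Leaving out 1 library gave 3 (without KO replicate 3) to 8 (without KO replicate 2), where all genes had 1082 and 1141 calls. In the sum over all cells the count of 0 became 1 with DESeq2 (*Ednrb*), 2 at 30% (*Ednrb* and *Nos3*) and 0 to 1 without 1 library (1, *Nos3*, without KO replicate 3). All genes had 814, 626 and 439 calls in these sums, beside 163 as reported. The 10 calls of other pathway genes were 33 with no filter and 7 to 11 without 1 library, and the 4 differences between classes 3 to 5. With the replicate block 7 pairs of a member and a class were called, *Edn1* in PC (adjusted p = 0.0377) and *Ece1* in podocytes (0.0135) being added, and 13 pairs of another pathway gene. All genes had 1776 calls with this block. Correlations of deviations between mice with the same number ran from −0.25 to 0.36, and in 0 of 22 sums was every pair over 0.1. Removing the top 6% of doublet scores in every library was the treatment already used and gave no other value. With 3 mice a group an exact permutation test cannot go below 0.1. Low levels near free RNA, and classes of few cells, limit what could be detected.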
